A study of Mus musculus with 20 samples.

Results

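The genes described here are 10 genes of phospholipid synthesis and remodelling, Pemt, Chka, Pcyt1a, Lpcat1, Lpcat2, Lpcat3, Lpcat4, Mfsd2a, Lpin1 and Plpp3, out of 18193 genes that a probe set on the array names alone. They were taken from a fixed list by name, with no cut on a measured value, though the list was chosen with earlier results of these data known. Among the probe sets that name only a given gene, the one with the highest mean log2 signal over all arrays stood for it. All 10 had such a probe set. Male C57BL/6J mice (written C56BL/6J in the sample labels) entered the feeding study at the age of 7 weeks and were kept on 1 of 4 diets for 12 weeks. The groups were normal CRF-1 chow (NC), a diet rich in fat (60% of calories), sodium cholate (0.5%) and cholesterol (1.25%), called CL, and this diet with either astaxanthin (CL + AX) or vitamin E (CL + VE) at 0.02%. The CL diet induces nonalcoholic steatohepatitis, and both supplements are antioxidants, astaxanthin a carotenoid and vitamin E a tocopherol. Liver RNA of each of 20 mice, 5 per group, went onto its own Affymetrix array after a fast of 2 h. No group received a single component of the CL diet, so the effects of its components cannot be told apart.

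Phosphatidylcholine, the main phospholipid of liver membranes, of bile and of the lipoprotein surface, is built in the liver along a pair of routes. In the CDP-choline route choline is phosphorylated, activated with CTP and joined to diacylglycerol, and in the other route phosphatidylethanolamine is methylated in successive steps. Fatty acid chains are then exchanged in the Lands cycle, in which phospholipases remove a chain and lysophospholipid acyltransferases put another one in. Phosphatidic acid phosphatases supply the diacylglycerol that both phospholipid and triacylglycerol synthesis draw on.

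All values below are log2 signals after quantile normalization, and a difference between groups is a difference of mean log2 signals, called where limma's moderated test gave a Benjamini-Hochberg adjusted p under 0.05 over all 45037 probe sets. The 10 hepatocyte markers measured were bright in every group, as in liver, with Alb at log2 signals of 13.34 to 13.60 in NC and 13.35 to 13.53 in CL. They lie near the top of the signal range, where quantile normalization holds values together, so their nearly constant sum says little, and between CL and NC Apob and Fgb were called higher (0.20 and 0.31) and Hnf4a lower (-0.29). The summed signals of 16 macrophage and Kupffer cell markers were 2254 to 6720 in NC, 11202 to 27219 in CL, 10157 to 22480 in CL + AX and 9021 to 22006 in CL + VE, and 14 of the 16 were called higher in CL than in NC. The defining markers Adgre1 and Clec4f were measured in NC as well, at log2 signals of 6.84 to 7.67 and 7.62 to 9.29. Of the other lists, 10 of 12 stellate cell and fibroblast, 6 of 12 endothelial cell and 5 of 9 lymphocyte markers were called higher in CL. So were 1 of 6 bile duct cell and 0 of 6 neutrophil markers, where 23.3% of all genes were called in either direction. In whole liver RNA, more cells of a type and more RNA per cell cannot be told apart. The part of these markers in the differences of the 10 genes from NC was not tested. The NC arrays also stood apart in an added control RNA, since the log2 3'/5' ratio of Dap was 3.14 ± 0.18 (SD, n = 5) in NC and 1.24 ± 0.13 in CL, and in the log2 3'/5' ratio of Gapdh, which was 0.57 ± 0.14 in NC and -0.17 ± 0.062 in CL. These differences coincide with the diet in every comparison against NC and cannot be told apart from it. Within CL + VE, mouse 5 had a log2 Dap ratio of 2.26, where the other mice lay between 0.99 and 1.16. That mouse had the highest CL + VE signals of Chka, Lpcat1, Lpcat2, Mfsd2a and Lpin1, and the lowest of Pemt and Lpcat3. The part of the ratio in these values was not tested.

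Between the CL and NC livers, 5 of the 10 phospholipid genes were called. Chka, Lpcat1 and Lpcat2 were higher in CL, and Pcyt1a and Lpin1 were lower. Of all probe sets, 17.6% were called in this comparison, and of the 18193 genes read from their brightest probe set 23.3% were called. The median log2 difference of the 10 genes was 0.15, beside -0.036 over all genes. The split of 3 higher and 2 lower moved with the scaling, to 4 and 1 on unscaled signals and to 3 and 3 with median centring. Standard errors (SEs) of a log2 difference had a median of 0.36 over all probe sets, dim ones included. Those of the 10 genes, read from their brightest probe sets, ran from 0.088 for Pemt to 0.48 for Lpcat4.

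**Figure D1:**
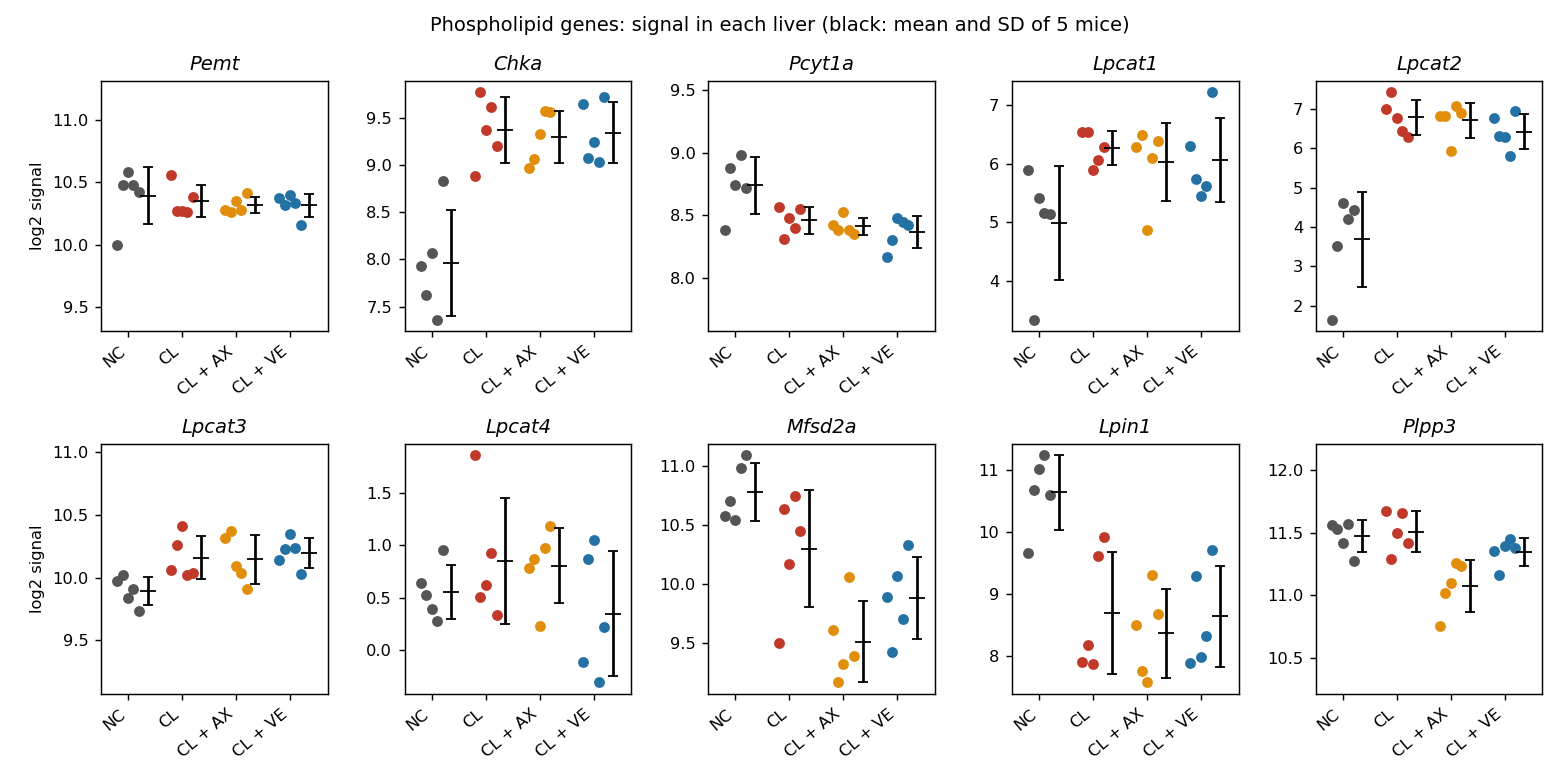
Log2 signal (vertical axis) of the 10 phospholipid genes in each of the 4 diet groups, with a point per mouse and the mean and SD of 5 mice in black; each panel has its own scale. Lpcat2 and Chka lie above every NC mouse in all CL, CL + AX and CL + VE mice, Lpin1 lies lower in most of them, and the Pemt panel shows one low NC mouse at 10 and no group apart from the others.

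In the methylation route, Pemt, the enzyme that converts phosphatidylethanolamine to phosphatidylcholine, was not called in any comparison of the quantile-normalized signals. Its log2 signal ran from 10 to 10.58 in NC, from 10.26 to 10.56 in CL, from 10.26 to 10.41 in CL + AX and from 10.16 to 10.40 in CL + VE. The ranges overlap throughout, and only NC mouse 1, at 10, lay below the rest of its group, which began at 10.42. The difference between CL and NC was -0.041 (SE 0.088), with a 95% interval from -0.22 to 0.14 and an adjusted p of 0.82. The scaling sets the sign, since it was 0.24 on the signals without scaling, where the median probe set itself lay 0.40 higher in CL. The scaling also set the call in CL + AX relative to NC, where the difference was -0.073 (adjusted p = 0.658) but fell to -0.46 with median centring and was called (SE 0.10, adjusted p = 0.00203), beside a shift of -0.15 in the median probe set.

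Chka, choline kinase alpha, which phosphorylates choline in the opening step of the CDP-choline route, was higher on every CL diet. Its log2 signals in NC mice 1 to 5 were 7.93, 7.62, 8.07, 7.36 and 8.83. In CL they were 8.88, 9.77, 9.37, 9.62 and 9.20. No CL mouse overlapped with the NC mice, though CL mouse 1 exceeded NC mouse 5 by little. The CL + AX mice gave 8.97, 9.06, 9.33, 9.57 and 9.56, and the CL + VE mice 9.65, 9.07, 9.24, 9.03 and 9.72. These groups also stayed above all NC mice and overlapped with CL. Chka rose by 1.41 in CL relative to NC (SE 0.22, adjusted p = 8.25e-05), a 2.66-fold difference, by 1.34 in CL + AX (adjusted p = 0.000137) and by 1.38 in CL + VE (adjusted p = 0.000182). It was called in the comparison of CL with NC when any one of the 20 arrays was left out.

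Chka has 2 dimmer probe sets, and these differ from the brightest one in the CL + VE mice. The first rose by 1.05 (SE 0.23, adjusted p = 0.00222) and the second by 1.27 (SE 0.32, adjusted p = 0.00685) in CL relative to NC. In CL + VE relative to NC they differed by 0.25 (adjusted p = 0.557) and 0.13 (adjusted p = 0.859), neither of them called. The brightest Chka probe set was called in the same comparison. Relative to CL the CL + VE values were lower by log2 differences of -0.80 (SE 0.23, adjusted p = 0.323) and -1.14 (SE 0.32, adjusted p = 0.315) in limma's fit. The first of them read 7.82, 8.15, 8.68, 8.10 and 7.46 in CL and 7.40, 6.93, 7.81, 6.94 and 7.13 in CL + VE. The groups overlap in this first probe set. In the second they did not, at 6.56 to 7.44 in CL and 5.52 to 6.24 in CL + VE. Of all probe sets, 1.73% had groups without overlap in this comparison. Neither difference passed the adjustment over all probe sets. With the mean of the 3 Chka probe sets the difference between CL + VE and NC was 0.59 and was not called (adjusted p = 0.0726), nor was that of the brightest one by the methods' test (adjusted p = 0.0581). The log2 3'/5' ratio of Actb also differed between these groups, at 1.32 to 1.51 in CL + VE and 1.01 to 1.25 in CL, beside 1.54 to 1.95 in NC, and its part in the Chka values was not tested. Which transcripts of Chka each probe set reads was not examined here.

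Pcyt1a encodes the alpha form of the enzyme that turns phosphocholine and CTP into CDP-choline and sets the pace of the CDP-choline route. Its promoter is shown because the gene was called over the 4 diets and because its window held the least frequent of the searched motifs. The sequence is GRCm38.p6 chr16:32430671-32430920 on the plus strand, the 250 bases before the outermost start of the gene in the RefSeq annotation, 5' to 3', with matches to the searched motifs in capitals.
Pcyt1a: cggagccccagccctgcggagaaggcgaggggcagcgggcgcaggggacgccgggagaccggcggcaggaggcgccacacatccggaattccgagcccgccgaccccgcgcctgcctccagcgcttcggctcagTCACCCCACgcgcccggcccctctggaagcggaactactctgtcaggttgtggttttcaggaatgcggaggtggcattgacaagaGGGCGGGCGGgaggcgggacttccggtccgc
The capitals mark a match to the sterol regulatory element TCACNCCAC, the letters bound by sterol regulatory element binding proteins, and a pair of overlapping GC boxes (GGGCGG). Both strands were searched. Of 32851 such promoter windows of mouse genes, 1.05% hold the sterol element and 32.7% a GC box, and a match of letters shows no binding.

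Pcyt1a was lower on each of the CL diets by a small amount, and whether a diet passed the test depended on the setting. Its log2 signals in NC were 8.38, 8.88, 8.74, 8.98 and 8.72, and in CL 8.57, 8.31, 8.48, 8.40 and 8.55. NC mouse 1 lay within the CL range, and the other NC mice lay above all CL mice. Pcyt1a fell by 0.28 in CL (SE 0.094, adjusted p = 0.0432), a 1.21-fold difference, by 0.33 in CL + AX (adjusted p = 0.0172) and by 0.38 in CL + VE (adjusted p = 0.00899), relative to NC. The call between CL and NC was lost in 10 of the 20 fits that left out an array, with adjusted p up to 0.131. These were the fits without NC mouse 2, 3, 4 or 5, CL mouse 2, 3 or 4, or CL + AX mouse 1, 2 or 4. The CL call was also lost with trimmed-mean scaling (adjusted p = 0.111), without the variance trend (0.0927) and with only the 2 groups compared (0.11). It was lost too by the methods' test (adjusted p = 0.212) and with the mean of its probe sets (0.239). The fall in CL + AX lost its call without NC mouse 4 (adjusted p = 0.0587), with the mean of its probe sets (0.0839) and by the methods' test (0.15). The fall in CL + VE lost its call by the methods' test (adjusted p = 0.144). On unscaled signals Pcyt1a was 0.13 higher in CL, less than the 0.40 by which the median probe set moved, and its 3 dimmer probe sets gave differences of -0.37, 0.074 and -0.31, none of them called. In CL + VE relative to NC the first of these fell by 0.80 (adjusted p = 0.015), and on unscaled signals the brightest one differed by 0.21 in CL + AX and by -0.20 in CL + VE, neither called.

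**Figure D2:**
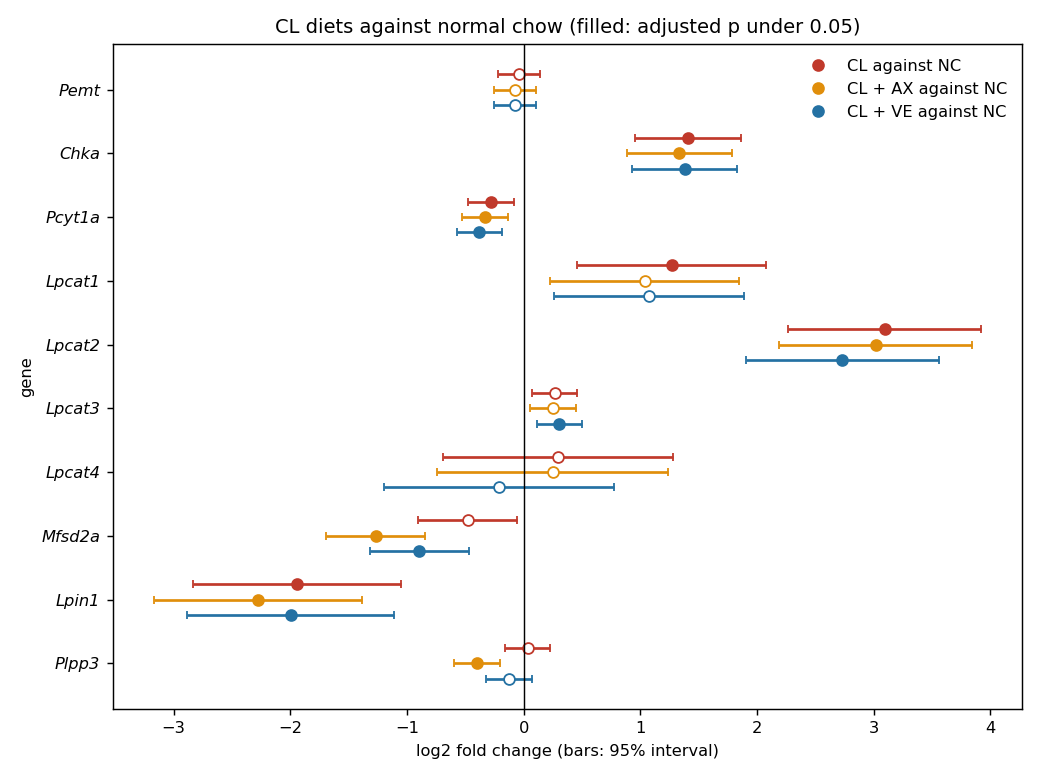
Log2 fold change (horizontal axis) of each phospholipid gene in CL, CL + AX and CL + VE against NC, with 95% intervals from limma; filled points have an adjusted p under 0.05. Lpcat2 stands at 3.09, 3.02 and 2.73, Lpin1 at -1.94, -2.27 and -2.0, and Mfsd2a is filled for CL + AX and CL + VE but open for CL.

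Of the lysophosphatidylcholine acyltransferases, Lpcat2 changed most. Lpcat2 is an acyltransferase of inflammatory cells that also carries out the last step in the synthesis of platelet-activating factor. The promoter of Lpcat2 is shown for the member with the largest difference of the 10. It is GRCm38.p6 chr8:92855083-92855312 on the plus strand, the 230 bases of its RefSeq window that precede the gene.
Lpcat2: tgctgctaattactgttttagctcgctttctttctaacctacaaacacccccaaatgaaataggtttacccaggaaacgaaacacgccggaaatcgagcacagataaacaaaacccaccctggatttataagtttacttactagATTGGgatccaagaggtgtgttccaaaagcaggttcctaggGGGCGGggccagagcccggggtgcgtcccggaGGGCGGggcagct
The capitals are a CCAAT box (CCAAT, here on the minus strand), found in 33.8% of all windows, and a pair of GC boxes. Neither an E-box (CACGTG, 6.02% of windows) nor the core letters for PU.1, a myeloid transcription factor (GAGGAA, 23.3%), occurred in the window of Lpcat2.

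The log2 signals of Lpcat2 in NC were 1.65, 3.53, 4.6, 4.21 and 4.43. In CL they were 7.00, 7.41, 6.76, 6.43 and 6.28. No CL mouse came near the NC mice, and the lowest value, that of NC mouse 1, lay far below the other NC mice. In CL + AX they were 6.81, 6.81, 5.92, 7.07 and 6.89, and in CL + VE 6.75, 6.31, 6.29, 5.79 and 6.93. Relative to NC, Lpcat2 rose by 3.09 in CL (SE 0.40, adjusted p = 1.21e-05), by 3.02 in CL + AX (adjusted p = 1.51e-05) and by 2.73 in CL + VE (adjusted p = 8.85e-05), which is 8.54-fold in CL. The NC signals of Lpcat2 lie around the median of all probe sets, 4.21, and no detection calls were used here, so the size of the rise is imprecise. Its dimmer probe set rose by 1.14 in CL (SE 0.36, adjusted p = 0.0298), 1.20 in CL + AX and 1.22 in CL + VE. Leaving out any one array moved the difference between CL and NC from 2.59 to 3.32 and kept it called. The macrophage and Kupffer cell markers moved with Lpcat2 between NC and the CL diets, as did many stellate cell and lymphocyte markers. The part of these markers in this result was not tested.

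Lpcat1, the acyltransferase best known from lung surfactant synthesis, lay higher on all CL diets than in NC, and whether a diet passed the test depended on the setting. It read 5.90, 3.34, 5.42, 5.16 and 5.14 in NC and 6.55, 6.54, 5.90, 6.06 and 6.28 in CL. NC mouse 2 lay well below the other NC mice, and NC mouse 1 lay just below the lowest CL mouse, both at 5.90 after rounding. Lpcat1 rose by 1.27 in CL relative to NC (SE 0.39, adjusted p = 0.0263). The differences in CL + AX, 1.04 (SE 0.39, adjusted p = 0.0736), and in CL + VE, 1.07 (SE 0.39, adjusted p = 0.0753), did not pass, and Lpcat1 did not differ by the test between these groups and CL, with 95% intervals from -1.04 to 0.58 and from -1.01 to 0.61. The CL call was lost without NC mouse 2, where the difference was 0.86 (adjusted p = 0.0829), and without CL mouse 1 (adjusted p = 0.0565) or 2 (adjusted p = 0.0597). The CL + AX difference passed without CL + AX mouse 3, at 1.32 (adjusted p = 0.019), without NC mouse 1 (adjusted p = 0.0341) or without CL + VE mouse 5 (adjusted p = 0.0496). The CL + VE difference passed without NC mouse 1 (adjusted p = 0.0373). Unscaled signals, trimmed-mean scaling and the filter on dim probe sets called both supplements, with adjusted p of 0.000831, 0.0236 and 0.0475 in CL + AX and 0.0224, 0.0427 and 0.0481 in CL + VE. The CL call was lost without the variance trend (adjusted p = 0.0552), with the methods' test (adjusted p = 0.188) and with the mean of the probe sets (0.80, adjusted p = 0.132). Of its 4 other probe sets, the one at a mean log2 signal of 5.04 was called higher in CL (1.28), CL + AX (1.19) and CL + VE (1.34), and the other three were not called in any of these comparisons.

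Lpcat3, the liver and gut enzyme that loads polyunsaturated chains into phosphatidylcholine and is a target of the sterol receptor LXR, lay slightly higher on the CL diets. Its log2 signal was 9.73 to 10.02 in NC, 10.02 to 10.41 in CL, 9.91 to 10.37 in CL + AX and 10.03 to 10.35 in CL + VE. The CL + VE mice lay just above the NC mice, and the other groups touched or overlapped with them. Relative to NC the difference was 0.27 in CL (SE 0.094, adjusted p = 0.0541), 0.25 in CL + AX (adjusted p = 0.0688) and 0.31 in CL + VE (adjusted p = 0.0329), so that the last alone was called in this fit. It lost its call in 6 of the 20 fits without one array, those without NC mouse 3, 4 or 5 or CL + VE mouse 2, 3 or 4, with adjusted p up to 0.0873. The CL difference in turn passed without NC mouse 2, CL mouse 4, CL + AX mouse 2 or 5, or CL + VE mouse 5, with adjusted p from 0.0435 to 0.0487. The call in CL + VE was also lost with median centring (adjusted p = 0.194), without the variance trend (adjusted p = 0.0922) and with the methods' test (adjusted p = 0.0685). The differences in CL and CL + AX were both called with the replicate block (adjusted p = 0.0214 and 0.0285), with the filter on dim probe sets (adjusted p = 0.0329 and 0.0419) and on unscaled signals (adjusted p = 0.0016 and 0.000241). The direction in CL + AX depends on the scaling, since median centring gave -0.099.

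Lpcat4, which acylates lysophospholipids, was at the bottom of the measured range. Its mean log2 signal of 0.64 lies at the 8.45th percentile of all probe sets. Its values ran from 0.28 to 0.95 in NC, 0.33 to 1.86 in CL, 0.23 to 1.18 in CL + AX and -0.31 to 1.05 in CL + VE. All groups overlap, and a 95% interval of the difference between CL and NC from -0.69 to 1.28 leaves its direction unknown.

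**Figure D3:**
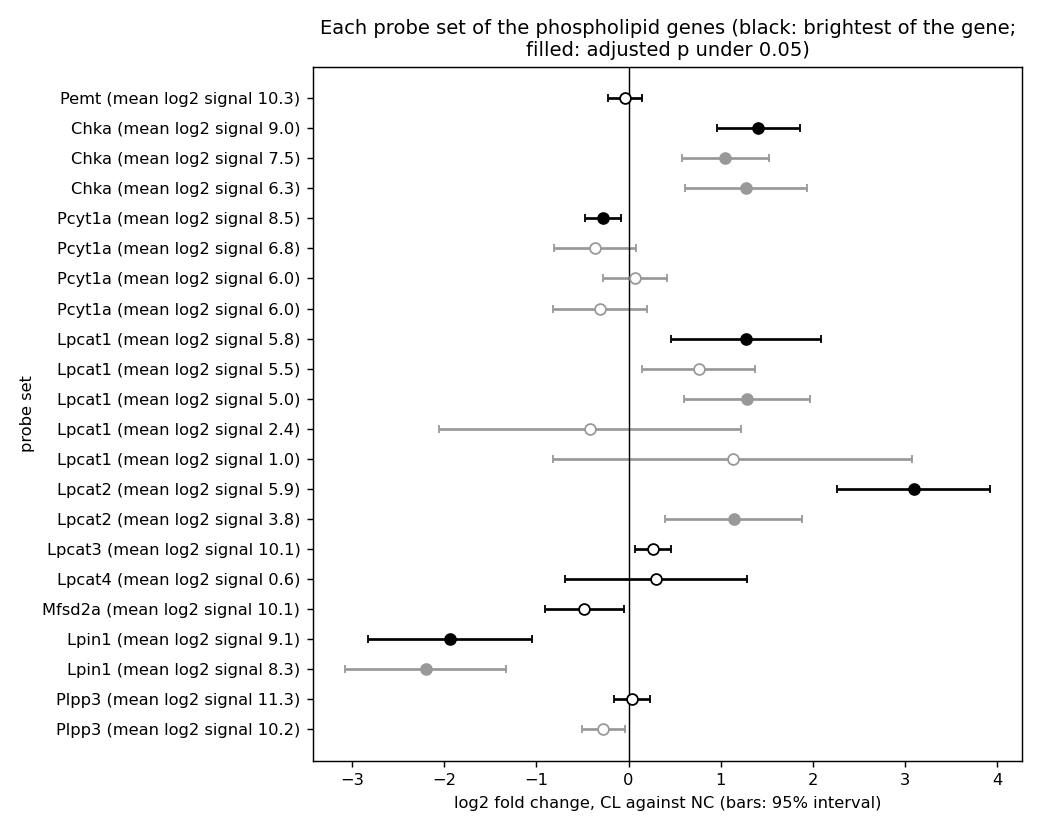
Log2 fold change of CL against NC (horizontal axis, 95% intervals) for all 22 probe sets that name 1 of the 10 phospholipid genes alone, with the brightest probe set of each gene in black and its other probe sets in grey. The Chka, Lpcat2 and Lpin1 probe sets lie on one side of 0 with intervals that leave it out, while those of Pcyt1a and Lpcat1 spread to both sides.

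Mfsd2a, a membrane transporter that takes up lysophosphatidylcholine carrying long-chain fatty acids such as docosahexaenoic acid, was lower with each supplement than in NC. Its promoter is shown because the gene was called in both supplements relative to NC and its window held 3 of the 6 searched motifs. The sequence is GRCm38.p6 chr4:122961195-122961438 on the minus strand, the 244 bases of its RefSeq window before the gene.
Mfsd2a: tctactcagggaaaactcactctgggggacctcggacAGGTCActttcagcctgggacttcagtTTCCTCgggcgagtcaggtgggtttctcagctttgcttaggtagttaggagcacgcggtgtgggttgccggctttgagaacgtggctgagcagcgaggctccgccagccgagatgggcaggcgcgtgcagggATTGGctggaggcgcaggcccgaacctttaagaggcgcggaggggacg
The capitals are, in order, a nuclear receptor half-site (AGGTCA, held by 14.0% of all windows), the PU.1 letters and a CCAAT box, the last 2 of these on the opposite strand. Peroxisome proliferator-activated receptors and their partner RXR bind pairs of such half-sites, and a single half-site is no such pair.

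The log2 signals of Mfsd2a in NC were 10.57, 10.70, 10.54, 10.98 and 11.09. In CL they were 9.50, 10.63, 10.17, 10.74 and 10.45. Most CL mice lay close to the NC mice, and CL mouse 1 lay well below them. In CL + AX they were 9.61, 9.17, 9.32, 10.06 and 9.39, and in CL + VE 9.89, 9.42, 10.07, 9.70 and 10.33. All mice on either supplement lay below all NC mice. The order of the group means was NC at 10.78 ± 0.25, CL at 10.30 ± 0.50, CL + VE at 9.88 ± 0.35 and CL + AX at 9.51 ± 0.35 (SD, n = 5 each). No neighbours in this order differed by the test, with adjusted p of 0.119 for CL against NC, 0.671 for CL + VE against CL and 0.624 for CL + AX against CL + VE in limma. Relative to NC, Mfsd2a fell by 1.27 in CL + AX (SE 0.20, adjusted p = 0.000125) and by 0.89 in CL + VE (SE 0.20, adjusted p = 0.00482). With median centring the fall in CL, by 0.74, was also called (adjusted p = 0.0198), as it was with trimmed-mean scaling (-0.59, adjusted p = 0.0436).

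Lpin1, lipin 1, is a phosphatidic acid phosphatase that yields diacylglycerol and also acts with PPARA as a coactivator of fatty acid oxidation genes in liver. It fell most of the 10 genes. Its log2 signals in NC were 9.67, 10.69, 11.02, 11.24 and 10.60, and in CL 7.91, 8.18, 7.88, 9.62 and 9.92. In CL + AX they were 8.50, 7.76, 7.58, 9.32 and 8.69, and in CL + VE 7.89, 9.30, 7.99, 8.33 and 9.72. The spread within the CL diets was wide, with CL mice 4 and 5 and CL + VE mice 2 and 5 well above the rest of their groups, and CL mouse 5 and CL + VE mouse 5 exceeded NC mouse 1. Relative to NC, Lpin1 fell by 1.94 in CL (SE 0.43, adjusted p = 0.00256), by 2.27 in CL + AX (adjusted p = 0.000607) and by 2.0 in CL + VE (adjusted p = 0.00294), 3.84-fold in CL. Its dimmer probe set gave log2 differences of -2.20, -2.55 and -2.24 in the same comparisons, all called. By the methods' test the brightest Lpin1 probe set was not called in CL (adjusted p = 0.0742) or in CL + VE (adjusted p = 0.0609). The window of Lpin1 in the promoter table lies inside the gene, at an inner start, and held a half-site and none of the other 5 motifs, and it is not printed.

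Plpp3, a phospholipid phosphatase of the plasma membrane that removes phosphate from lysophosphatidic acid and phosphatidic acid outside the cell, was lower in CL + AX. Its log2 signals were 11.56, 11.53, 11.42, 11.57 and 11.27 in NC and 11.67, 11.29, 11.50, 11.66 and 11.42 in CL. In CL + AX they were 10.75, 11.02, 11.10, 11.26 and 11.23, and in CL + VE 11.35, 11.16, 11.39, 11.45 and 11.38. All CL + AX mice lay below all NC and all CL mice, and they overlapped with CL + VE by 1 mouse of that group. Relative to NC, Plpp3 fell by 0.40 in CL + AX (SE 0.093, adjusted p = 0.00393), while it differed by 0.037 in CL (adjusted p = 0.848) and by -0.12 in CL + VE (adjusted p = 0.449). Without scaling the CL + AX difference was -0.13 (adjusted p = 0.47), beside a rise of 0.63 in the median probe set, and with median centring the difference in CL turned to -0.31 (adjusted p = 0.0648) and that in CL + VE, at -0.35, was called (adjusted p = 0.0413). The dimmer Plpp3 probe set fell by 0.59 in CL + AX relative to NC (SE 0.11, adjusted p = 0.000581). It differed by -0.27 in CL (adjusted p = 0.0965) and by -0.25 in CL + VE (adjusted p = 0.147) in limma, neither called. By the methods' test the brightest Plpp3 probe set was not called in CL + AX relative to NC (adjusted p = 0.0715).

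No phospholipid gene was called between the CL diets. The share of all probe sets called was 0.00222% for CL + AX against CL, 0% for CL + VE against CL and 0.00222% for CL + AX against CL + VE. At an unadjusted p under 0.05 by limma, 2, 0 and 1 of the 10 genes passed, beside 3244, 3412 and 4016 of all probe sets. The methods' t-test gave the same 2, 0 and 1 genes by count before adjustment and 0 after it. In CL + AX relative to CL the largest differences were those of Mfsd2a, -0.79 (SE 0.20, 95% interval from -1.21 to -0.36, adjusted p = 0.32 in limma), and of Plpp3, -0.44 (SE 0.093, 95% interval from -0.63 to -0.24, adjusted p = 0.254).

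Plpp3 was the only one of the 10 whose CL + AX and CL mice did not overlap, where 1.71% of all probe sets had groups without overlap. Its dimmer probe set gave -0.31 (SE 0.11, adjusted p = 0.521). The summed signals of 12 endothelial cell markers, a cell type in which Plpp3 is expressed, ran from 2352 to 2696 in CL + AX, from 2672 to 3273 in CL, from 2397 to 3572 in CL + VE and from 1336 to 2637 in NC, and their part in the Plpp3 result was not tested. In CL + VE relative to CL, none of the 10, read from their brightest probe sets, had groups without overlap (1.73% of all probe sets). The second dimmer Chka probe set did, as given above. Of the brightest probe sets, Mfsd2a at -0.41 (adjusted p = 0.671) and Plpp3 at -0.16 (adjusted p = 0.731) had the smallest p. Between the supplements, Plpp3 was lower in CL + AX than in CL + VE by a log2 difference of -0.27 (SE 0.093, adjusted p = 0.339), and again none of the 10 had groups without overlap (2.12% of all probe sets). With median centring the Plpp3 difference was -0.55 and was called (adjusted p = 0.0116), beside a shift of -0.115 in the median probe set. Over all 10 settings that kept every array it ran from -0.55 to -0.0032, with adjusted p up to 0.989. On unscaled signals the median probe set lay 0.43 higher in CL + AX than in CL + VE.

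**Figure D4:**
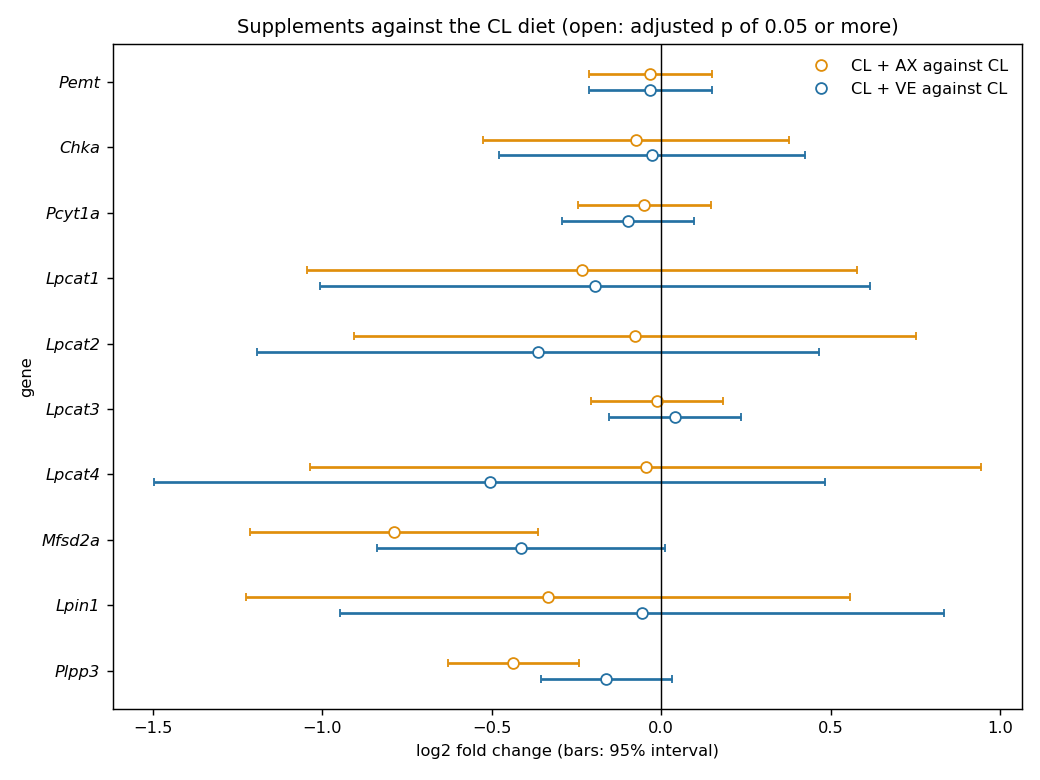
Log2 fold change (horizontal axis) of each phospholipid gene in CL + AX and in CL + VE against CL, with 95% intervals from limma; open points have an adjusted p of 0.05 or more, which holds for all points. Both intervals of Chka, Pemt and Lpcat3 lie across 0, and the CL + AX intervals of Mfsd2a, from -1.21 to -0.36, and of Plpp3, from -0.63 to -0.24, lie below it.

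The members called in CL relative to NC were also compared between a supplement and CL. Read from their brightest probe sets, these differences were small beside their intervals. The difference between CL + AX and CL lay between -0.52 and 0.38 for Chka and between -0.91 and 0.75 for Lpcat2 at 95%. For CL + VE it lay between -0.48 and 0.42 for Chka and between -1.19 and 0.47 for Lpcat2. In CL + VE relative to CL, the dimmer Chka probe sets gave intervals from -1.28 to -0.33 and from -1.81 to -0.48. Neither of these differences was called. For Lpin1 the intervals ran from -1.23 to 0.56 in CL + AX and from -0.95 to 0.83 in CL + VE.

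Over the 4 diets together, limma's F test called 6 of the 10 genes, Chka, Pcyt1a, Lpcat2, Mfsd2a, Lpin1 and Plpp3, where 16.5% of all probe sets were called. Against NC, 17.2% of all probe sets and 23.3% of the 18193 genes were called in CL + AX, and 13.1% and 17.5% in CL + VE. Of the 10 genes, 6 were called in each. In CL + AX these were Chka and Lpcat2 higher and Pcyt1a, Mfsd2a, Lpin1 and Plpp3 lower, and in CL + VE Chka, Lpcat2 and Lpcat3 higher and Pcyt1a, Mfsd2a and Lpin1 lower. The comparisons against NC share the NC mice. Between CL and NC, 3 of the 10 genes (Chka, Lpcat1 and Lpcat2) had groups without overlap, where 11.9% of all probe sets did. For the F test and for groups without overlap, no share over genes read from their brightest probe sets was computed. The shares over all probe sets include dim ones and may lie below it, as 17.6% lay below 23.3% for the calls between CL and NC.

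The wider set of phospholipid genes moved in both directions. Of 80 further genes in 10 lists, 75 had a probe set of their own. Between CL and NC 14 of the 75 were higher, 14 lower and 47 not called, with a median log2 difference of -0.028. In CL + AX relative to NC 14 were higher and 16 lower, and in CL + VE 15 and 13. Of all 18193 genes, 23.3% were called in CL, 23.3% in CL + AX and 17.5% in CL + VE relative to NC, and the counts per list below stand beside the 23.3% of CL. None was called between the CL diets, in any of the 3 comparisons.

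**Figure D5:**
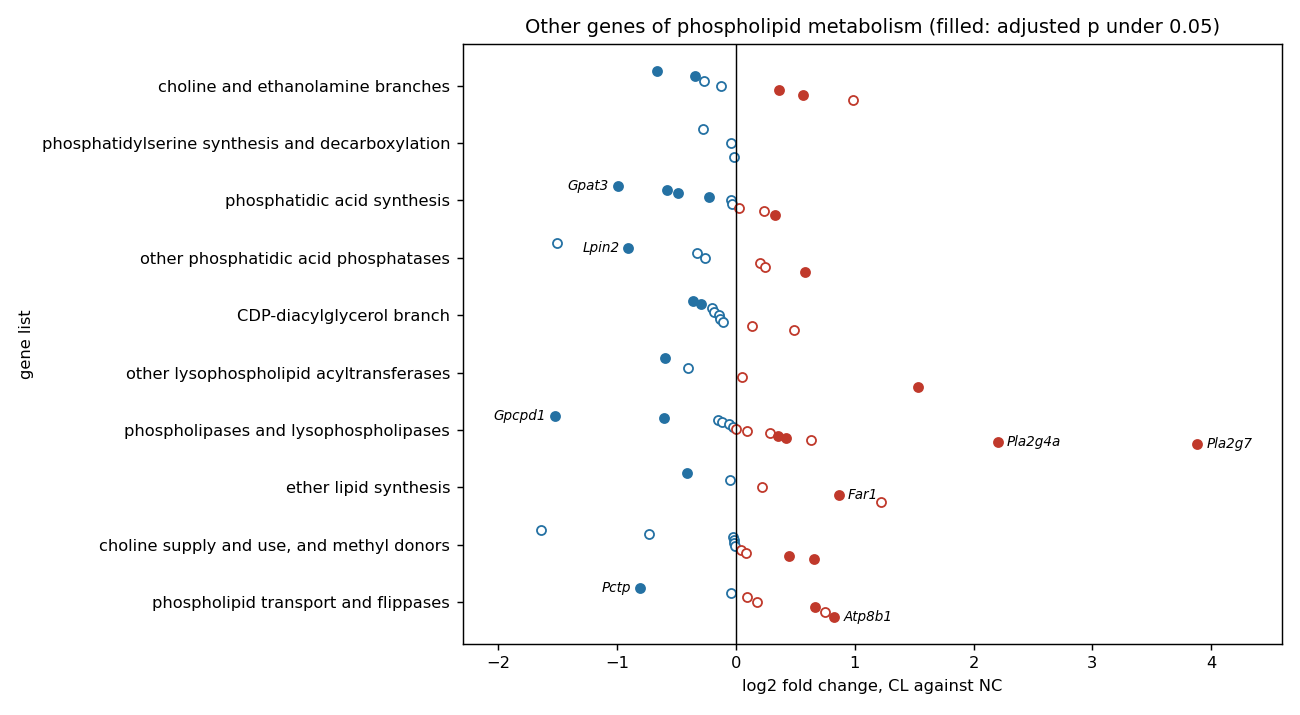
Log2 fold change of CL against NC (horizontal axis) for the 75 further genes of phospholipid metabolism, a point per gene, grouped by list (vertical axis); filled points have an adjusted p under 0.05. Pla2g7 at 3.88 and Pla2g4a at 2.20 stand to the right of all other genes, and Gpcpd1 at -1.52 is the lowest filled point.

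Among the phospholipases and lysophospholipases 4 of 14 genes were higher in CL and 2 lower. Pla2g7, the secreted phospholipase that breaks down platelet-activating factor and oxidized phospholipids, lay between 2.23 and 4.83 in NC and between 6.97 and 8.08 in CL. It rose by 3.88 (SE 0.43, adjusted p = 2.54e-06), with 3.69 in CL + AX and 3.26 in CL + VE. Pla2g4a, the cytosolic phospholipase that releases arachidonic acid, rose by 2.20 in CL (SE 0.24, adjusted p = 2.16e-06), from 3.67 to 5.10 in NC to 6.03 to 6.85 in CL. As for Lpcat2, the macrophage markers and many stellate cell and lymphocyte markers moved with both genes, and their part was not tested. Gpcpd1, which cleaves glycerophosphocholine, fell by 1.52 (SE 0.44, adjusted p = 0.0179), with wide NC values between 9.50 and 12.11, and Lypla2, a lysophospholipase, fell by 0.60 (SE 0.074, adjusted p = 7.21e-06).

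In the choline and ethanolamine branches 2 of 7 genes were higher and 2 lower in CL. Cept1, which joins CDP-choline or CDP-ethanolamine to diacylglycerol, rose by 0.56 (SE 0.11, adjusted p = 0.000895). Pcyt2, the counterpart of Pcyt1a in the ethanolamine branch, fell by 0.66 (SE 0.071, adjusted p = 1.36e-06), with all CL mice (10.47 to 10.72) below all NC mice (11.11 to 11.37). Of the choline supply genes 2 of 10 were higher and none lower, Slc44a2, a choline transporter-like protein, by 0.66 (adjusted p = 0.0166), and its relative Slc44a1, named after its values were seen, by 0.45 (adjusted p = 0.00146). None of the methyl donor genes of this list was called.

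Phosphatidic acid synthesis held 1 gene higher and 4 lower among 9. Gpat3, a glycerol-3-phosphate acyltransferase, fell by 0.99 (SE 0.14, adjusted p = 3.79e-05), and Agpat1, which acylates lysophosphatidic acid, by 0.58 (SE 0.17, adjusted p = 0.0187). Of 7 other phosphatidic acid phosphatases 1 was higher and 1 lower. Lpin2, a relative of Lpin1, fell by 0.91 in CL (SE 0.17, adjusted p = 0.000553), 0.98 in CL + AX and 0.93 in CL + VE, and all mice on a CL diet (10.45 to 11.52) lay below the NC mice (11.69 to 11.95). Plpp1, a relative of Plpp3, rose by 0.58 in CL (SE 0.17, adjusted p = 0.0162).

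Of 4 other lysophospholipid acyltransferases, Mboat1, named after its values were seen, was higher by 1.53 (SE 0.51, adjusted p = 0.0391) and Lpgat1, which acylates lysophosphatidylglycerol, was lower by a log2 difference of -0.60 (SE 0.07, adjusted p = 4.43e-06). Among 7 transport genes, Abca1, which exports cholesterol and phospholipid to apolipoprotein A-I, rose by 0.67 (SE 0.068, adjusted p = 8.64e-07) and Atp8b1, a flippase of the bile canaliculus, by 0.83 (SE 0.145, adjusted p = 0.000277). Pctp, the phosphatidylcholine transfer protein, fell by 0.81 (SE 0.13, adjusted p = 8.81e-05). In ether lipid synthesis 1 of 5 genes was higher, Far1, which makes the fatty alcohol, by 0.87 (SE 0.19, adjusted p = 0.00217), and 1 was lower. The CDP-diacylglycerol branch had 2 of 9 genes lower and none higher, and none of the 3 phosphatidylserine genes was called.

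Between the CL diets the smallest p among these 75 genes were as follows. In CL + AX relative to CL, Mboat2, another lysophospholipid acyltransferase, differed by -0.81 (SE 0.24, adjusted p = 0.414), Ptpmt1, a phosphatase of cardiolipin synthesis, by -0.29 (adjusted p = 0.477) and Plpp2, a relative of Plpp3, by 0.33 (adjusted p = 0.496). In CL + VE relative to CL, Ptdss1, Lypla2 and Gnpat differed by 0.18, 0.18 and 0.26, with adjusted p of 0.524, 0.565 and 0.664 in limma. Between CL + AX and CL + VE, Mboat2 differed by -0.72 (adjusted p = 0.313), Plpp2 by 0.32 (adjusted p = 0.341) and Gnmt by -0.22 (adjusted p = 0.349). None of them passed.

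For the members whose group means spanned more than 1 on the log2 scale, the genes with the most similar profile over the 20 arrays were sought among 11396 genes at or above the median signal, by the root mean square difference of mean-centred log2 signals. This is a description over arrays that share the 4 diets. The nearest genes to Lpcat2 were Tlr2 (0.42), Cd53 (0.44) and Igsf6 (0.44), whose mean log2 signals were 4.25, 6.13 and 3.64 in NC and 6.69, 8.75 and 6.5 in CL. Those of Lpcat1 were Klhl6 (0.41), Il16 (0.42) and Hvcn1 (0.43), and those of Chka were Rab32 (0.27), Fli1 (0.29) and Pdgfc (0.30). The nearest to Lpin1 were Fam107a (0.56), Tmc7 (0.60) and Per2 (0.62), a component of the circadian clock, whose mean log2 signal was 7.66 in NC, 5.84 in CL, 5.03 in CL + AX and 5.78 in CL + VE. The nearest to Mfsd2a were 1810055G02Rik (0.31), Baiap2l1 (0.33) and Lgals4 (0.34).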

How the data were processed

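Liver RNA of 20 mice, 5 per diet, had been hybridised to 1-colour Affymetrix arrays. Per the labels and the study's methods, the authors labelled the RNA with a 3' IVT kit and computed probe set intensities with the MAS5 algorithm of the array software, and the deposited intensity values (0.0139 to 18757, linear) had not been brought to a common level between arrays. Here 64 control probe sets were left out, and log2 signals of 45037 probe sets were quantile-normalized. They were fitted in limma 3.58.1 (R 4.3.3) in 1 model of 4 groups with 16 residual degrees of freedom, a mean-variance trend and Benjamini-Hochberg adjustment over all probe sets per comparison. Detection calls were not used here. Of these probe sets 34945 name 1 gene, 932 several and 9160 none.

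The number of arrays, 5 per group, limits the precision. The 10 genes, the pathway and marker lists and the tests were chosen with earlier results of these data known. All 10 genes are named. Of the pathway genes those named were up to 8 in each direction with the largest called difference between CL and NC at or above the median signal, and between CL diets the 3 with the smallest p. For members spanning over 1 on the log2 scale the 3 nearest profiles are given. Alternatives were other scalings (none, median, mean of the middle 96%), an offset of 16, a signal filter, no trend, only the groups compared, the methods' t-test or ANOVA, the mean of probe sets, a replicate block and leaving out each array. The fit was tested on simulated data. No labels or headers used here give hybridisation or scan batches, and no pair of arrays held duplicate values (highest correlation 0.936). Promoters are RefSeq windows of GRCm38.p6, in which all 10 genes matched.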

Additional observations from a re-analysis of the deposited data

Results flagged for a closer look

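In 3 of 40 groups of 5 values (10 genes in 4 diets), 1 mouse lay so far from the others that the gap took more than 0.71 of the group's whole range. Chance alone marks about 1 group in 20, or 2 here. Pemt in NC mouse 1 had a log2 signal of 10, where the other NC mice lay between 10.42 and 10.58. Lpcat1 in CL + AX mouse 3 was at 4.88, with the other CL + AX mice between 6.10 and 6.5. Lpcat2 in the same CL + AX mouse 3 was at 5.92, with the others between 6.81 and 7.07. This mouse also had the lowest summed signal of its group for the macrophage and Kupffer cell markers (10157.5), the stellate cell and fibroblast markers (4971.9) and the lymphocyte markers (409.3), and their part in its Lpcat1 and Lpcat2 values was not tested.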

How the results depend on the processing

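Of the alternatives other than leaving out an array, 110 of 123 counts of called genes stayed within 1.5 times the reported count. These include the counts between the CL diets, most of which were 0 in both fits and were scored as unchanged. Between CL and NC, 5 members were called, against 3 without the variance trend, 3 with the mean of all probe sets of a gene and 2 with the methods' t-test. In the fits that left out 1 array, this count ran from 3 (without CL mouse 2) to 6. With the methods' t-test no member (0) was called in CL + VE against NC, and the wider lists gave 14 called genes in CL against NC, 15 in CL + AX against NC and 8 in CL + VE against NC, in place of 28, 30 and 28. The lists gave 18 in CL + VE against NC both without scaling and with only the groups compared. Between CL + AX and CL + VE, median centring called 1 member, Plpp3, and 11 list genes, and unscaled signals 2 list genes, in place of 0. Over the 4 diets the methods' ANOVA, added after the data were seen, called 2 members in place of 6. The cause of these shifts was not tested.

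Signs turned where differences were small. On unscaled signals, where the median probe set moved by up to 0.63, Pemt became 0.2427 (CL), 0.3155 (CL + AX) and 0.0211 (CL + VE) and Pcyt1a 0.1331 (CL) and 0.2117 (CL + AX) relative to NC. In CL + AX relative to CL it gave Pemt 0.0728, Chka 0.0493, Pcyt1a 0.07861, Lpcat2 0.09473, Lpcat3 0.09679 and Lpcat4 0.2883, and in CL + VE relative to CL Lpcat3 -0.155. Median centring gave Plpp3 -0.3069 in CL and Lpcat3 -0.09855 in CL + AX relative to NC, Lpcat4 0.01493 in CL + AX relative to CL, and Pemt 0.05388 and Chka 0.02375 in CL + VE relative to CL. Trimmed-mean scaling gave Plpp3 -0.1632 (CL against NC) and Lpcat4 0.1574 (CL + AX against CL), and the mean of probe sets Plpp3 -0.1175 (CL against NC). Leaving out 1 array moved Pemt from -0.139 to 0.007168 and Plpp3 from -0.01158 to 0.09231 in CL against NC. In CL + AX against CL the ranges were -0.0562 to 0.01934 for Pemt, -0.1952 to 0.02669 for Chka, -0.3519 to 0.05288 for Lpcat1, -0.2003 to 0.119 for Lpcat2, -0.06904 to 0.05031 for Lpcat3 and -0.1758 to 0.2066 for Lpcat4. In CL + VE against CL they were -0.05334 to 0.01988 for Pemt, -0.1499 to 0.07193 for Chka and -0.3259 to 0.2458 for Lpin1. Chka and Lpcat2 stayed called between CL and NC in all 20 such fits and under all 10 other settings.

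The mice share replicate numbers across diets. Whether the numbers pair them was not settled by the following correlations, for which no chance level was computed. Deviations of same-numbered mice correlated from -0.20 to 0.31 over 30 pairs, 7 of them over 0.1, and 9 of 20 arrays correlated best with their own number. With the replicate block, which added Lpcat3 in CL and CL + AX, 6, 7 and 6 members were called in CL, CL + AX and CL + VE against NC, 29, 32 and 28 list genes, 7 members over the 4 diets, and 0 between the CL diets. Dim signals limit Lpcat4, at the 8.45th percentile of signal, and the NC values of Lpcat2.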
